A study of Mus musculus with 2 samples.

Results

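The pair of chemokine axes described here comprises 5 genes, chosen by name: the ligands Cxcl9 and Cxcl10 with their receptor Cxcr3, and the ligand Cxcl16 with its receptor Cxcr6. They are among 27998 genes counted, and each was found in both libraries. CXCL9 and CXCL10 are secreted chemokines that interferon gamma induces, and they attract T cells, NK cells and plasmacytoid dendritic cells that carry CXCR3. CXCL16 is made as a membrane protein that the proteases ADAM10 and ADAM17 can shed, and it both holds and attracts lymphocytes with CXCR6. In mouse liver, sinusoidal endothelial cells and Kupffer cells are known sources of CXCL16, and CXCR6 marks lymphocytes that patrol or reside in the sinusoids.

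The RNA came from liver nonparenchymal cells of C57BL/6 mice that received carbon tetrachloride (CCl4) 4 times. This solvent damages hepatocytes, and repeated doses serve as a fibrosis model. The yap1 library came from yap1 flox/flox mice with lyz2 Cre, a recombinase driven by a myeloid gene. The WT library came from wild-type mice given the same treatment. Each library is a sample from 3 mice, so each genotype had 1 library, no test over samples could be made, and genotype and library cannot be told apart. Intervals below cover counting error only.

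The yap1 library held 4731 barcodes with 34234353 UMIs (unique molecular identifiers, counted molecules), and the WT library held 5269 barcodes with 30386545 UMIs. After filters 3983 yap1 cells and 4653 WT cells remained, with medians of 5285 and 4066 UMIs, and 5 barcodes occurred in both libraries. Cells were sorted into 19 classes by marker genes, none of them a member, and a class is called "like" its cell type. By the same markers 125 yap1 cells and 137 WT cells were hepatocyte-like, although the label names nonparenchymal cells. Yap1 itself had 3 UMIs in yap1 and 2 UMIs in WT macrophages of monocyte origin, and 0 in classical monocytes of both, so it does not check the labels there.

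Cxcl9 (ENSMUSG00000029417, chr5:92321347-92328079) and Cxcl10 (ENSMUSG00000034855, chr5:92346638-92348889) are neighbours on the minus strand of mouse chromosome 5 in GRCm38 (mm10). Cxcl10 lies wholly inside Art3 on the other strand. Cxcr3 (ENSMUSG00000050232) is at chrX:101731535-101734269. Cxcl16 (ENSMUSG00000018920, chr11:70453983-70459984) shares 552 bases at its start with Zmynd15 on the other strand. Cxcr6 (ENSMUSG00000048521, chr9:123806475-123811760) lies inside Fyco1, again on the other strand. No source used here says whether counting used strand. Reads within the bases that these 3 members share with their antisense partners therefore cannot be told apart.

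The 250 bases before the start sites of the interferon-inducible pair are shown because their promoters are where interferon and inflammatory signals are read out in textbook accounts. Sequences are from RefSeq on GRCm38.p6, written 5′ to 3′ along the gene, from chr5:92348890-92349139 for Cxcl10 and chr5:92328080-92328329 for Cxcl9, both on the minus strand. Capitals mark matches, on either strand, to an ISRE-like motif (interferon-stimulated response element: GAAA, any 2 bases, GAAA) or a kappa B-like motif (GGG, any 5 bases, CC).
Cxcl10: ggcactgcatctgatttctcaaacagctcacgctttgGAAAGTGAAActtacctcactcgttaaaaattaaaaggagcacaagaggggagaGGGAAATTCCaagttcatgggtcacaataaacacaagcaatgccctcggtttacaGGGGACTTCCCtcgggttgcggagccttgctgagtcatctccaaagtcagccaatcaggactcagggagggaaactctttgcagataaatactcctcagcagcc
Cxcl9: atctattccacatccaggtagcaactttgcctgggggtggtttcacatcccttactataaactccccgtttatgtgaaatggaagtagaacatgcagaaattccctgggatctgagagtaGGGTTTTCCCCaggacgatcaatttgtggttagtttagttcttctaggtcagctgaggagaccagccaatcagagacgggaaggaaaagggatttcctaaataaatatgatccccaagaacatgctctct
The Cxcl10 stretch held an ISRE-like match that begins at base -213 from the start site, and 3 kappa B-like matches, of which those at -104 and -103 overlap. Cxcl9 held no ISRE-like match here and 2 overlapping kappa B-like matches at -130 and -129. Of 32851 promoters of 300 bases in the same table, 3.44% held an ISRE-like match and 50.8% a kappa B-like match. Neither member matched a GAS-like motif (gamma-activated site, TTCNNNGAA), which 8.3% of the promoters held. Promoters of 4 of the 5 members were found in the table. A match is a run of letters, and no binding was measured.

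Ligand RNA was highest in endothelial cells, macrophages, monocytes and some dendritic cells, and receptor RNA in T cells, NK or ILC1-like cells and plasmacytoid dendritic cells. The classes overlapped: type 1 dendritic cells had both Cxcl9 and Cxcr3, and T cell-like cells had some Cxcl10. Levels are a gene's summed UMIs in a class per 1000000 UMIs of that class (CPM), with exact Poisson 95% intervals.

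**Figure D1:**
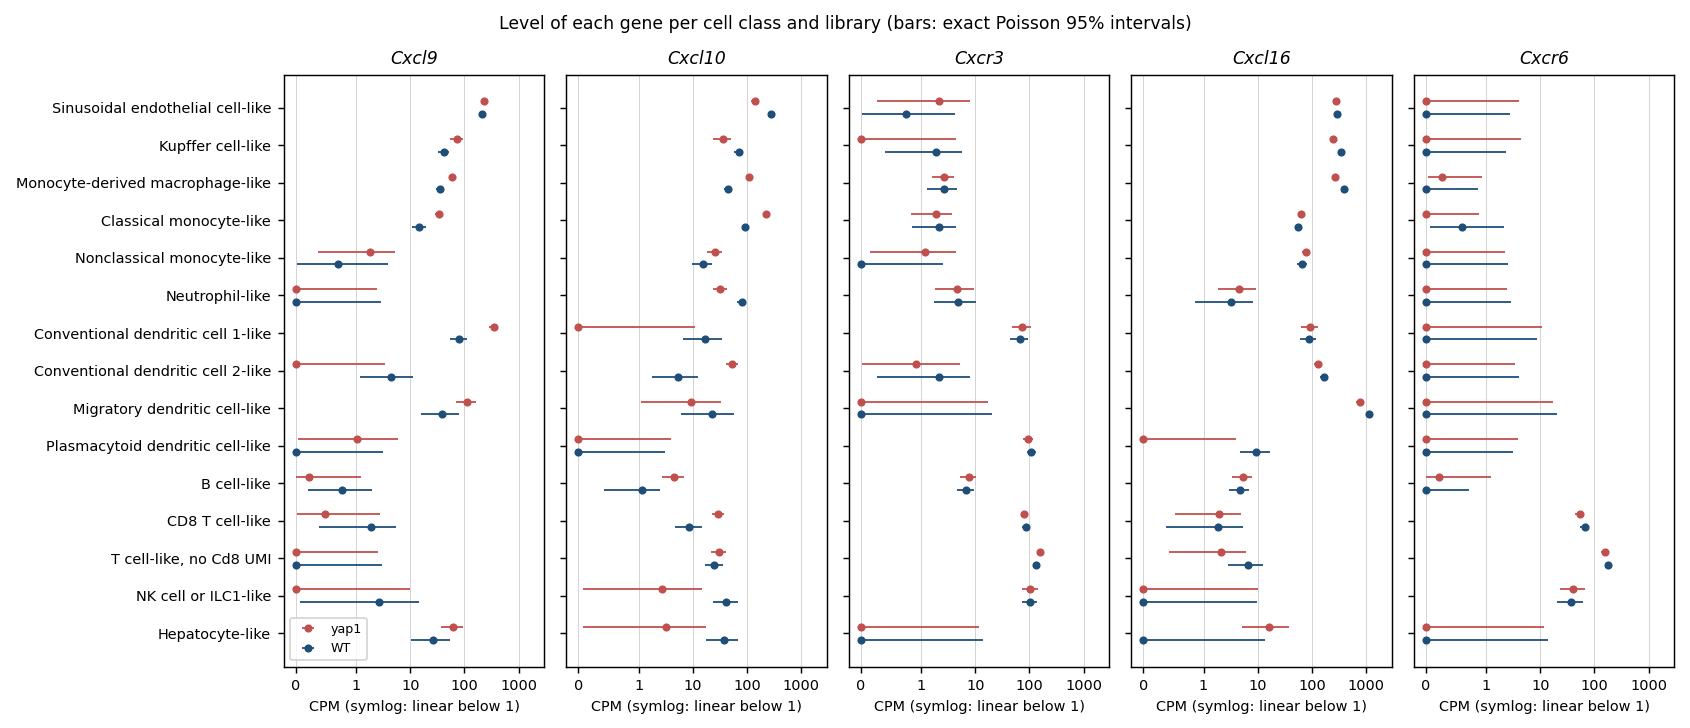
Level of each member (CPM, symlog axis, linear below 1) in 15 cell classes, with yap1 drawn above WT and bars for exact Poisson 95% intervals. T cell-like cells are drawn apart by Cd8 UMIs, and their Cxcr6 lies between 54.1 and 179 CPM, with endothelial and myeloid classes at or near 0, whereas Cxcl16 is highest in dendritic, macrophage and endothelial classes.

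Among classes with 50 cells or more in each library, the Cxcl9 level was highest in liver sinusoidal endothelial cells (LSEC). These fenestrated cells line the sinusoids. LSEC-like cells had 231 CPM of Cxcl9 in yap1 (interval 201 to 264, 302 cells) and 209 CPM in WT (185 to 235, 410 cells). A Cxcl9 UMI was found in 28.1% of yap1 and 29.0% of WT LSEC-like cells, at median depths of 2199 and 2223 UMIs. B cell-like cells, not a known source of the gene, had shares of 0.109% in yap1 and 0.312% in WT, at deeper medians of 4418 and 3665 UMIs. The endothelial UMIs were spread out: the top cell held 7.04% of them in yap1 and 5.07% in WT, and the top 5 cells held 22.5% and 16.7%.

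In macrophages and monocytes the same gene sat in very few cells. Macrophages of monocyte origin (MDM, Gpnmb and Trem2 carriers) had 59.7 CPM of Cxcl9 in yap1 and 35.8 CPM in WT, but only 4.38% of 480 yap1 cells and 4.40% of 318 WT cells had a UMI. A single cell held 243 of the 459 yap1 UMIs, and a single cell held 55 of the 151 WT UMIs. Classical monocytes, the Ly6c2-bearing cells that enter from blood, had 33.7 CPM in yap1 and 14.8 CPM in WT, from 10 and 3 cells. Kupffer cells, the resident macrophages, had 72.4 CPM in yap1 from 5 cells and 41.5 CPM in WT from 8 cells. Conventional dendritic cells of type 1 had 349 CPM in yap1 and 77.9 CPM in WT, from 5 of 19 and 3 of 35 cells. Neutrophil-like cells had no Cxcl9 UMI among 437 yap1 and 381 WT cells, which allows shares of cells with a UMI of up to 0.686% and 0.787%. Over the 11 classes that held 50 cells or more in both libraries, LSEC-like cells stood first beyond counting error in both libraries, and the next ranks, from Kupffer to hepatocyte-like cells, were not separated by their intervals.

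Cxcl10 was shared between endothelium and monocytes, in a different order in each library. In the yap1 library classical monocytes stood first with 222 CPM (208 to 237), LSEC-like cells had 141 CPM (118 to 168) and MDM-like cells 108 CPM (100.4 to 115). In the WT library LSEC-like cells stood first with 284 CPM (256 to 314), classical monocytes had 93.1 CPM (83.0 to 104) and MDM-like cells 43.8 CPM (37.7 to 50.6). A Cxcl10 UMI was found in 12.9% of yap1 and 18.3% of WT LSEC-like cells, and in 12.5% of yap1 and 7.77% of WT classical monocytes. In MDM-like cells the share ran against the level, with 9.58% in yap1 and 14.8% in WT. B cell-like cells had shares of 1.09% in yap1 and 0.390% in WT. Plasmacytoid dendritic cells had no Cxcl10 UMI in 81 yap1 and 127 WT cells.

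A few cells set much of the myeloid Cxcl10 level. In yap1 MDM-like cells 1 cell held 440 of 828 UMIs, while the top WT cell held 21 of 185. Among yap1 classical monocytes 1 cell held 439 of 924 UMIs, and among WT classical monocytes the top cell held 63 of 309. In neutrophil-like cells the order turned, with 81 of 102 WT UMIs in 1 cell and 19 of 49 yap1 UMIs in the top cell. LSEC-like cells had lower top-cell shares than these classes in both libraries, at 29.2% of yap1 and 8.8% of WT UMIs. The doublet scores of the top yap1 cells stood at percentile 66.4 (MDM) and 80.9 (classical monocyte) of their library. Every kept cell scored below the barcodes left out, so whether these cells are doublets was not tested.

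**Figure D2:**
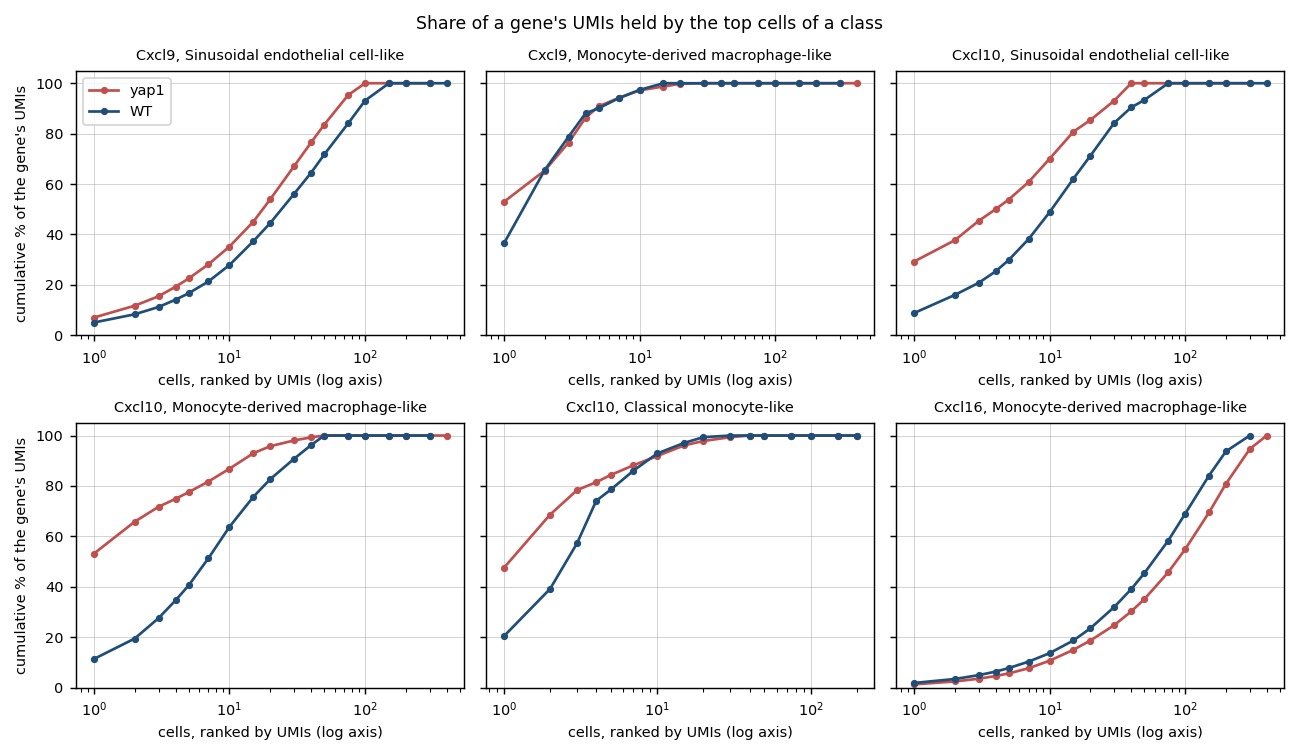
Cumulative share (%) of a ligand's UMIs against the number of cells, ranked by their UMIs (log axis), for 6 pairs of ligand and class in yap1 and WT. Curves for Cxcl9 and Cxcl10 in macrophages and monocytes start between 11.4% and 53.1% at 1 cell, whereas Cxcl16 in MDM-like cells starts at 1.27% in yap1 and 1.83% in WT.

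The ratio of yap1 over WT for Cxcl9 and Cxcl10 was therefore read with and without the top cell of each library, and leaving out that cell is an alternative added after the data were seen. In LSEC-like cells, where 16.4% of 8557 genes differed by at least 1.5-fold in either direction, Cxcl10 was 1 of the 3 members with enough UMIs to do so. Its ratio there was 0.497 (exact conditional interval 0.404 to 0.608), and 0.388 (0.305 to 0.490) without the top cells. With every cell weighted equally it was 0.682, inside the 1.5-fold bound. Cxcl9 in the same cells had a ratio of 1.11 (0.920 to 1.33), with 1 inside the interval. Among classical monocytes 2 of 3 members were past 1.5-fold, against 13.6% of all genes. Their ratios were 2.28 (1.64 to 3.23) for Cxcl9 and 2.39 (2.10 to 2.72) for Cxcl10, and 3.39 (2.09 to 5.74) and 1.58 (1.35 to 1.85) without the top cells. Classes drawn from Leiden clusters gave 1.02 for Cxcl9, and thinning every cell to 1000 UMIs gave 1.47 for Cxcl10. In MDM-like cells 2 of 4 members were past 1.5-fold, against 12.5% of all genes, and both lost that size without the top cells. Cxcl9 had a ratio of 1.67 (1.38 to 2.02) over all cells and 1.23 (0.965 to 1.58) without the top cells. Cxcl10 had 2.46 (2.09 to 2.90) over all cells and 1.30 (1.08 to 1.57) without the top cells. With cells thinned to 1000 UMIs the Cxcl9 ratio was 0.822, in the other direction, and with Leiden clusters the Cxcl10 ratio was 1.40.

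The other classes followed no single direction. Among Kupffer-like cells 2 of 3 members were past 1.5-fold, against 19.4% of all genes. Cxcl9 had a ratio of 1.74 (1.21 to 2.51), and 1.18 (0.627 to 2.15) without the top cells. Cxcl10 had 35.6 CPM in yap1 and 70.9 CPM in WT Kupffer-like cells, a ratio of 0.502 (0.323 to 0.757), and 0.510 without the top cells. With each cell weighted equally both Kupffer values changed direction, to 0.592 for Cxcl9 and 1.92 for Cxcl10, and thinning gave 0.785 for Cxcl9. Neutrophil-like cells had 32.1 CPM of Cxcl10 in yap1 and 80.7 CPM in WT, a ratio of 0.398 (0.277 to 0.565), and 1.18 (0.655 to 2.17) without the top cells. In that class 27.9% of all genes were past 1.5-fold, and the median log2 ratio of all genes was 0.21. T cell-like cells had 29.7 CPM in yap1 and 15.8 CPM in WT, a ratio of 1.88 (1.31 to 2.73), and 2.56 (1.54 to 4.40) without the top cells, where 11.9% of all genes were past 1.5-fold. Of 104 yap1 and 45 WT UMIs in T cell-like cells, the top cells held 38 and 24. Type 2 dendritic cells had 58 UMIs of Cxcl10 in yap1, 49 of them in 1 cell, and 5 UMIs in WT, with 19.5% of genes past 1.5-fold. B cell-like cells had 20 UMIs in yap1 and 6 in WT (4.44 and 1.15 CPM), with 11.1% of genes past 1.5-fold. Nonclassical monocytes had 25.3 CPM of Cxcl10 in yap1 and 15.3 CPM in WT, and the interval of that ratio, 0.967 to 2.91, held 1, with 15.9% of genes past 1.5-fold. Hepatocyte-like cells had 19 Cxcl9 UMIs in yap1, 18 of them in 1 cell, and 7 in WT, with 28.5% of genes past 1.5-fold.

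**Figure D3:**
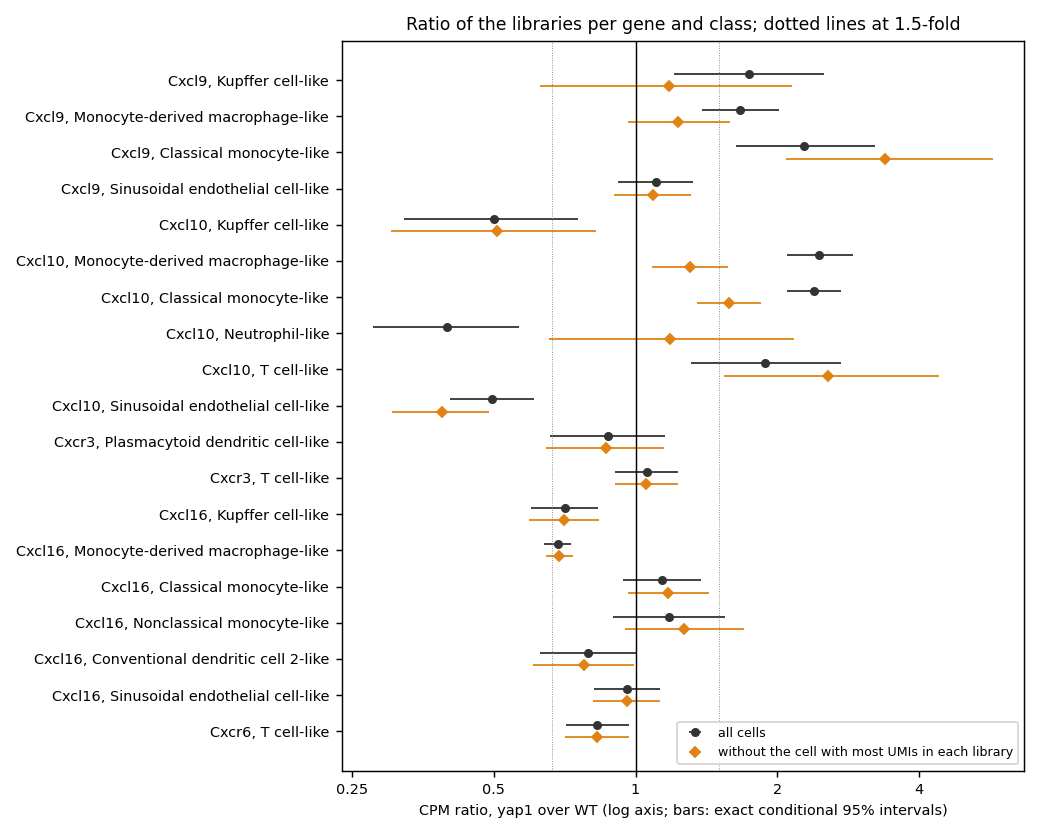
Ratio of CPM, yap1 over WT (log axis), for the 19 pairs of member and class with at least 100 UMIs, over all cells (circles) and without the cell with most UMIs in each library (diamonds), with exact conditional 95% intervals. The Cxcl10 ratio of MDM-like cells is 2.46 over all cells and 1.30 without the top cells, while the Cxcl16 ratio of the same class is 0.684 and 0.688.

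Marker genes of other cells moved beside the endothelial and myeloid results, and lists that reached 20 CPM in a library and differed by at least 1.5-fold are given for 4 classes. The 7 Kupffer markers summed to 42.3 CPM in yap1 and 139 CPM in WT LSEC-like cells, to 253 CPM in yap1 and 526 CPM in WT MDM-like cells, and to 18.8 CPM in yap1 and 60.6 CPM in WT classical monocytes. In LSEC-like cells the 6 B cell markers summed to 66.2 CPM in yap1 and 13.6 CPM in WT, the 8 NK markers to 45.6 CPM and 3.03 CPM, and the 6 erythroid markers to 70.5 CPM and 37.1 CPM. The 7 hepatocyte markers summed to 68.4 CPM in yap1 and 157 CPM in WT MDM-like cells. In Kupffer-like cells the 8 neutrophil markers summed to 123 CPM in yap1 and 58.2 CPM in WT, the 7 classical monocyte markers to 102 CPM and 63.9 CPM, and the 6 erythroid markers to 52.2 CPM and 30.7 CPM. The 7 MDM markers, just inside 1.5-fold, summed to 467 CPM in yap1 and 697 CPM in WT Kupffer-like cells. Their part in the ratios, the Cxcl16 ratio of Kupffer-like cells included, was not tested.

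Cxcl16 behaved differently from the interferon-inducible pair: it was broad, with most macrophages holding a UMI, and lower in yap1 macrophages. MDM-like cells had 266 CPM in yap1 (255 to 278) and 389 CPM in WT (370 to 408), a ratio of 0.684 (0.641 to 0.730). A Cxcl16 UMI was found in 80% of yap1 and 84.9% of WT MDM-like cells, and after thinning in 20.3% and 30.5%. MDM-like cells held 51.2% of all Cxcl16 UMIs in the yap1 library and 41.1% in the WT library. In B cell-like cells 1.53% in yap1 and 1.33% in WT had a Cxcl16 UMI. Kupffer-like cells had 247 CPM in yap1 (214 to 283) and 349 CPM in WT (320 to 379), a ratio of 0.707 (0.600 to 0.831). Both ratios lay below 1 beyond counting error and inside the 1.5-fold bound, although thinning gave 0.593 in MDM-like and 0.609 in Kupffer-like cells, and equal weights per cell gave 0.626 in Kupffer-like cells, all past it. In LSEC-like cells the levels were 281 CPM in yap1 and 293 CPM in WT, with 1 inside the interval of the ratio, 0.816 to 1.12.

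The other Cxcl16 classes stood lower or were small. Migratory dendritic cells, the Ccr7-bearing cells that leave for lymph nodes, had the highest level of all, 766 CPM in 28 yap1 cells (654 to 891) and 1144 CPM in 30 WT cells (992 to 1311). Type 2 dendritic cells had 130 CPM in yap1 and 164 CPM in WT. Nonclassical monocytes had 78.4 CPM in yap1 and 66.7 CPM in WT, and classical monocytes 63.7 CPM and 56.0 CPM. The ratios of these 3 classes, from 0.795 to 1.18, had 1 inside their intervals. After thinning they were 0.411 in type 2 dendritic cells, 3.08 in nonclassical and 1.51 in classical monocytes, from few UMIs. With Leiden clusters the ratio of classical monocytes lay on the other side of 1, at 0.662 (0.494 to 0.884). B cell-like cells had 5.33 CPM in yap1 and 4.61 CPM in WT. Over the larger classes MDM, Kupffer and LSEC-like cells were not ranked alike in the 2 libraries, and all 3 stood above type 2 dendritic cells beyond counting error in both.

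The sheddases of CXCL16 were found in the same classes. Adam10 had 159 CPM in yap1 and 155 CPM in WT MDM-like cells, 210 CPM and 183 CPM in Kupffer-like cells, and 206 CPM and 195 CPM in LSEC-like cells. Adam17 had 104 CPM in yap1 and 113 CPM in WT MDM-like cells. Neither protease was past 1.5-fold in any of these classes, where 12.5% (MDM), 19.4% (Kupffer) and 16.4% (LSEC) of all genes were. Zmynd15, which overlaps the start of Cxcl16, had 683 CPM in yap1 and 653 CPM in WT migratory dendritic cells, 82.5 CPM and 77.3 CPM in LSEC-like cells, and 13.6 CPM and 30.1 CPM in MDM-like cells.

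Cxcr3, the receptor of CXCL9 and CXCL10, was found at like levels in several kinds of lymphoid and dendritic cell. T cell-like cells had 113 CPM in yap1 (102 to 125) and 107 CPM in WT (95.3 to 120). Plasmacytoid dendritic cells, producers of type I interferon, had 95.5 CPM in yap1 (76.8 to 117) and 109 CPM in WT (91.2 to 130). NK or ILC1-like cells had 103 CPM in 48 yap1 cells and 102 CPM in 60 WT cells, with intervals that reach 72.7 to 141. Type 1 dendritic cells had 73.9 CPM in 19 yap1 cells and 66.1 CPM in 35 WT cells. A Cxcr3 UMI was found in 43.8% of yap1 and 35.0% of WT T cell-like cells, at median depths of 6673 and 5387 UMIs, and after thinning in 9.53% and 7.87%. LSEC-like cells, at lower depth, had shares of 0.331% in yap1 and 0.244% in WT, and MDM-like cells, at higher depth, 3.96% and 3.14%. B cell-like cells stood far lower, with 7.55 CPM in yap1 and 6.72 CPM in WT.

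The ratio of Cxcr3 between the libraries was 1.06 (0.907 to 1.23) in T cell-like cells and 0.874 (0.660 to 1.15) in plasmacytoid dendritic cells. None of the 4 classes with a Cxcr3 ratio was past 1.5-fold, and all 4 intervals held 1. In plasmacytoid dendritic cells 16.5% of all genes were past 1.5-fold, and thinning gave a Cxcr3 ratio of 0.646. T cell-like cells with a Cd8a or Cd8b1 UMI had 80.9 CPM of Cxcr3 in yap1 and 86.6 CPM in WT, and those without had 158 CPM in yap1 and 134 CPM in WT.

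Cxcr6 was almost confined to T cell-like cells, which held 93.6% of its 359 UMIs in the yap1 library and 91.6% of its 359 UMIs in the WT library. Its level there was 95.8 CPM in yap1 (85.8 to 107) and 115 CPM in WT (103 to 129), a ratio of 0.830 (0.711 to 0.969). With all cells thinned to 1000 UMIs the ratio was 0.989. NK or ILC1-like cells had 40.7 CPM in yap1 (22.8 to 67.1) and 36.7 CPM in WT (20.1 to 61.6). Outside these, LSEC, Kupffer, neutrophil and plasmacytoid classes had no Cxcr6 UMI in either library. In LSEC-like cells 0 of 302 yap1 and 0 of 410 WT cells allow shares of cells with a UMI of up to 0.993% and 0.732%. T cell-like cells without a Cd8 UMI had 155 CPM in yap1 (135 to 176) and 179 CPM in WT (156 to 204), above those with one, at 54.1 CPM in yap1 (44.5 to 65.1) and 66.8 CPM in WT (54.8 to 80.6). A UMI was found in 29.4% of yap1 and 27.5% of WT T cell-like cells, against 0.109% of 914 yap1 B cell-like cells and 0 of 1281 WT ones.

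T cell-like cells with a Cxcr6 UMI were compared with those without one inside each library. There were 139 such cells in yap1 and 134 in WT, at median depths of 6683 and 5529 UMIs, and the cells without one had medians of 6660 and 5271 UMIs. Of 7 measured genes of a list for tissue residence 6 were at least 1.5-fold higher with a Cxcr6 UMI in yap1, against 18.7% of all genes, with a median ratio of 2.28 against 1.14 over all genes. In WT 5 of 7 were, against 17.4% of all genes, with a median of 2.14 against 1.12. The intervals of 5 genes in yap1 and 4 in WT lay above 1. The sets share 6 genes, since Itga1 had enough UMIs in yap1 alone and Zbtb16 in WT alone. Examples, picked after their values were seen, are Id2, a repressor of E proteins, with ratios of 2.83 in yap1 and 2.35 in WT, and Bhlhe40, a factor of resident lymphocytes, with 2.28 and 2.96. Rora, a nuclear receptor of innate-like lymphocytes, had ratios of 2.98 in yap1 and 2.14 in WT. Cd69, a classic residence marker, stood near 1, at 1.06 in yap1 and 1.01 in WT. Ccr7, S1pr1 and Klf2, of a list for circulating lymphocytes, were at least 1.5-fold lower in both libraries, against 6.73% of all genes in yap1 and 7.33% in WT. Ccr7, which guides cells to lymph nodes, had 84.8 CPM with and 570 CPM without a Cxcr6 UMI in yap1, and 220 CPM with and 541 CPM without one in WT. S1pr1, the exit receptor, had ratios of 0.524 in yap1 and 0.303 in WT, and Klf2, a factor of quiescent T cells, 0.639 and 0.651. Cd8a, a coreceptor chain of cytotoxic T cells, had a ratio of 0.929 in yap1, with 1 inside its interval, and of 1.45 in WT, with an interval above 1. Among the genes named here, the intervals of the 2 libraries did not overlap for Cd8a, Ccr7, S1pr1 and Rora. The share of all genes with such intervals was not computed, so whether this is unusual is not known. These differences were not tested.

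**Figure D4:**
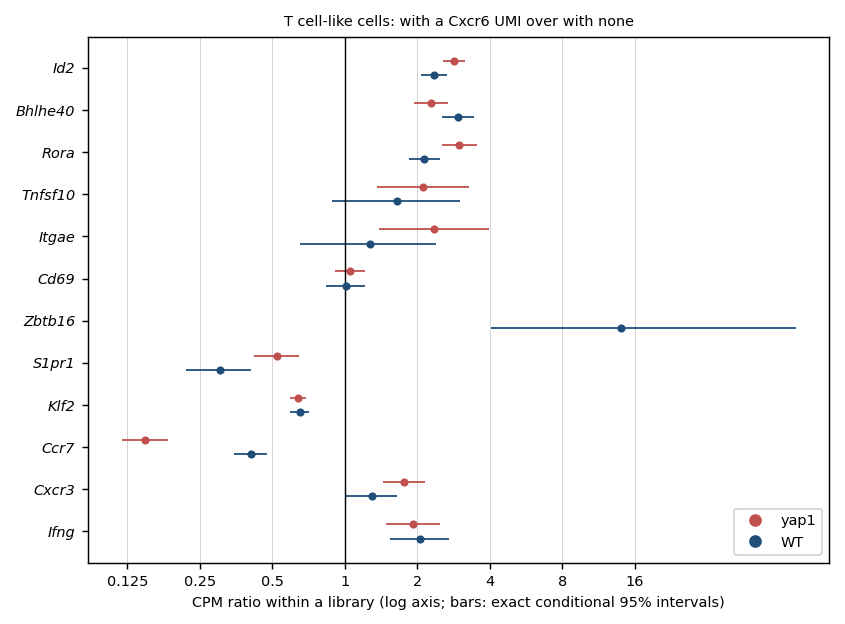
Ratio of CPM in T cell-like cells with a Cxcr6 UMI over those with none (log axis), within yap1 and within WT, with exact conditional 95% intervals, for the residence list (Id2 to Zbtb16), circulating genes (S1pr1 to Ccr7), Cxcr3 and Ifng. Residence genes lie at or right of 1 and circulating genes left of it in both libraries, with the intervals of Cd69 across 1 in both. Zbtb16 is drawn for WT alone, where it had at least 20 UMIs, and Itga1 is not drawn.

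The 2 receptors overlapped only in part. Among T cell-like cells with a Cxcr6 UMI 59.7% in yap1 and 41.8% in WT also had a Cxcr3 UMI, against 37.1% and 32.5% of those without. The Cxcr3 level with a Cxcr6 UMI was 163 CPM in yap1 and 128 CPM in WT, and without one 92.3 CPM and 98.6 CPM. Ifng, the inducer of CXCL9 and CXCL10, was higher with a Cxcr6 UMI, with ratios of 1.92 (1.48 to 2.48) in yap1 and 2.04 (1.54 to 2.70) in WT. Split by Cxcr3 instead, the ratios of Ifng were 2.88 (2.16 to 3.86) in yap1 and 1.84 (1.40 to 2.44) in WT. Ccr7, S1pr1 and Klf2 were again at least 1.5-fold lower in both, against 6.71% of all genes in yap1 and 6.65% in WT. By Cxcr3, the 7 measured residence genes had median ratios of 1.65 in yap1 and 1.21 in WT, against 1.09 over all genes in each. Itgae, an integrin that binds epithelial E-cadherin, set the receptors apart. With a Cxcr3 UMI its ratios were 0.299 (0.153 to 0.551) in yap1 and 0.104 (0.0207 to 0.325) in WT, whereas with a Cxcr6 UMI they were 2.34 (1.38 to 3.97) and 1.27 (0.651 to 2.40).

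Ifng RNA itself was found mainly in NK or ILC1-like and T cell-like cells, classes that also had Cxcr3 and Cxcr6. Plasmacytoid dendritic cells, which had Cxcr3, had no Ifng UMI in either library. NK or ILC1-like cells had 325 CPM of Ifng in yap1 and 218 CPM in WT. T cell-like cells had 71.6 CPM in yap1 (63.0 to 81.0) and 74.4 CPM in WT (64.7 to 85.1), a ratio of 0.962 (0.798 to 1.16). Their subsets went in opposite directions. With a Cd8 UMI the levels were 61.9 CPM in yap1 and 43.9 CPM in WT, a ratio of 1.41 (1.05 to 1.91). Without one they were 85.2 CPM and 114 CPM, a ratio of 0.746 (0.581 to 0.956). The difference between the subsets was not tested. Among genes of the interferon gamma signal, the receptor chain Ifngr2 had a ratio of 0.616 (0.471 to 0.799) in Kupffer-like cells. The feedback inhibitor Socs1 had 24 UMIs in yap1 and 14 in WT LSEC-like cells. In classical monocytes Socs1 had 47 UMIs in yap1 and 9 in WT, a ratio of 4.17 (2.02 to 9.67).

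Genes that interferons induce were higher in yap1 classical monocytes, beside the higher Cxcl10 there. Of 15 such genes 10 were at least 1.5-fold higher and none lower, with a median log2 ratio of 0.88, against 7.03% of all genes higher by that much and a median of 0.00 over all genes. Gbp2, a guanylate-binding protein, had 86.3 CPM in yap1 and 30.1 CPM in WT, a ratio of 2.87 (2.29 to 3.61). Ifit2, an antiviral RNA-binding protein, had 52.2 CPM in yap1 and 19.0 CPM in WT, and Rsad2, the antiviral enzyme viperin, 84.7 CPM and 31.6 CPM. In classical monocytes with no Cxcl10 UMI, an alternative added after the data were seen, 8 of the 15 were still past 1.5-fold higher, with a median log2 ratio of 0.67. T cell-like cells had 7 of 15 past 1.5-fold higher and none lower, against 5.95% of all genes, with a median log2 ratio of 0.47. Without cells with a Cxcl10 UMI 5 of 14 were, and the median was 0.09. Kupffer-like cells had 6 of 15 higher, against 9.35% of all genes, and 0 of 15 without cells with a Cxcl10 UMI. MDM-like cells had 1 of 15 higher, against 6.52% of all genes, and LSEC-like cells 2 of 15, against 6.94%, and neither had one lower by that much. B cell-like cells had 4 of 14 higher, against 5.65%, and 1 lower, and type 2 dendritic cells 4 of 12 higher, against 9.26%, and 1 lower. In the other classes the genes past 1.5-fold were not mainly higher. Nonclassical monocytes had none higher and 4 of 12 lower, against 9.5% of all genes lower, and all 4 of those intervals lay below 1. The median log2 ratio there was -0.01, against -0.07 over all genes. Plasmacytoid dendritic cells had none higher and 3 of 9 lower, against 9.13%, with a median log2 ratio of -0.40. Neutrophil-like cells had 2 of 12 higher, against 22.7%, and 2 lower, against 5.23%, and hepatocyte-like cells had none of 4 higher and 1 lower, against 9.74%. The median log2 ratio was 0.20 in neutrophil-like cells, against 0.21 over all genes. In hepatocyte-like cells it was 0.20, against 0.08. In MDM-like cells Isg15, a ubiquitin-like protein, was at 155 CPM in yap1 and 227 CPM in WT, a ratio of 0.685 (0.628 to 0.746).

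Cells with a Cxcl10 UMI were compared with cells without one inside each library. In classical monocytes 12 of 15 measured interferon-stimulated genes were at least 1.5-fold higher with Cxcl10 in yap1 (median ratio 4.71), against 9.89% of all genes, and 10 of 13 in WT (3.68), against 12.4%. The intervals of 15 in yap1 and 11 in WT lay above 1, and those of Psmb8, at 1.05, and Tap1, at 1.16, held 1 in WT. Ifit1 had 240 CPM with and 22.9 CPM without a Cxcl10 UMI in yap1, and 121 CPM with and 11.9 CPM without one in WT. In MDM-like cells 13 of 15 were at least 1.5-fold higher in yap1 (median 2.05), against 8.85% of all genes, and 8 of 14 in WT (1.79), against 6.04%, with Gbp2 at 10.3-fold in yap1 and 4.06-fold in WT. In LSEC-like cells 2 of 14 were in yap1 (median 0.840), against 12.4% of all genes, and 2 of 14 in WT (1.01), against 10.4%. LSEC-like cells with a Cxcl9 UMI gave 5 of 14 in yap1 (1.02), against 9.25%, and 0 of 14 in WT (1.01), against 8.41%. By Cxcl10, 5 of 14 were at least 1.5-fold lower in yap1, each with 1 inside its interval, and 0 of 14 in WT. By Cxcl9, 2 of 14 were lower by that much in each library. The share of all genes lower was not computed for these splits. Ratios by Cxcl10 were above 1 for 4 of 14 in yap1 and 8 of 14 in WT, against 50.2% and 55% of all genes. The difference between the classes was not tested, and LSEC-like cells have fewer UMIs each. In LSEC-like cells those with a Cxcl10 UMI were also deeper, with medians of 4237 UMIs in yap1 and 6282 in WT, against 1995 and 1723 without one.

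**Figure D5:**
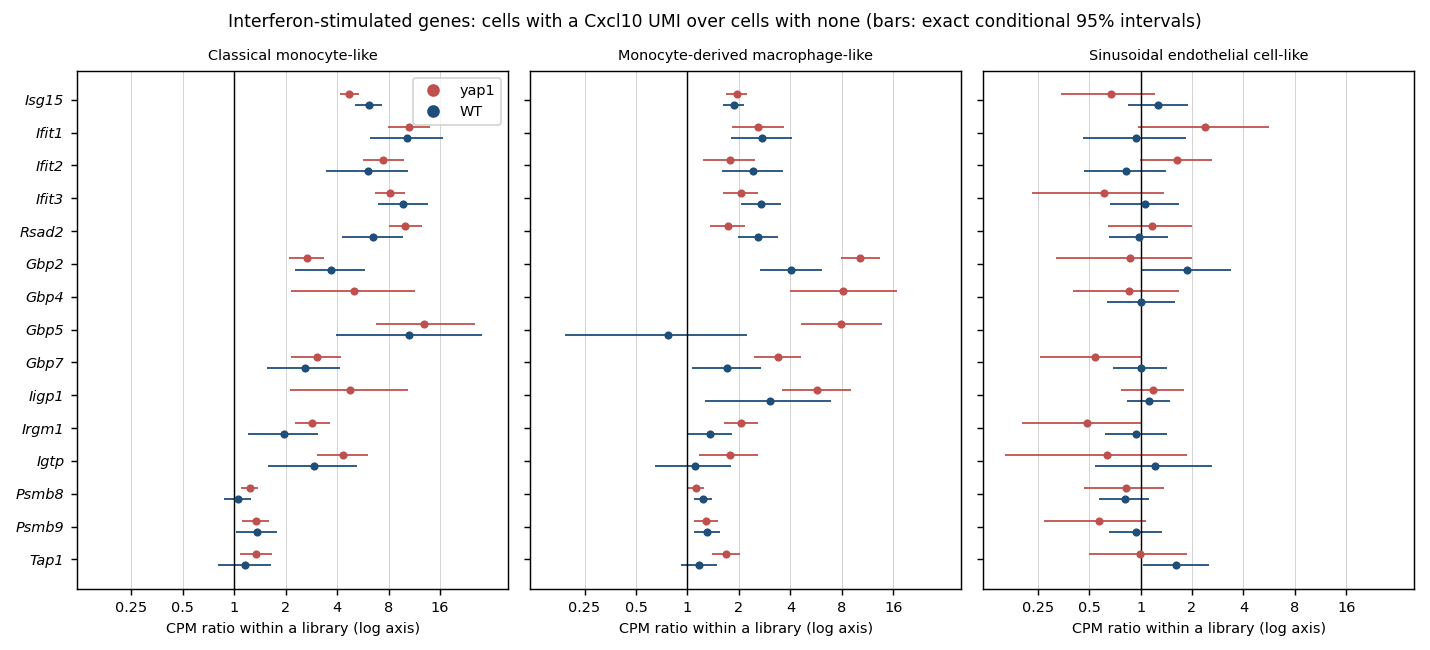
Ratio of CPM in cells with a Cxcl10 UMI over cells with none (log axis) for 15 interferon-stimulated genes in 3 classes, within yap1 and within WT, with exact conditional 95% intervals. In classical monocyte-like cells Isg15, Ifit1, Ifit2, Ifit3 and Rsad2 lie at 4.71 or more in both libraries, and in sinusoidal endothelial cell-like cells most intervals cross 1.

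Cells with a Cxcl9 UMI more often had a Cxcl10 UMI too in LSEC, MDM, classical monocyte and Kupffer-like cells of both libraries, as a description from small counts. In LSEC-like cells 27.1% of yap1 and 28.6% of WT cells with a Cxcl9 UMI also had a Cxcl10 UMI, against 7.37% and 14.1% of those without. In MDM-like cells 9 of 21 yap1 and 3 of 14 WT cells with Cxcl9 had Cxcl10. Deeper cells hold more UMIs of any gene: LSEC-like cells with a Cxcl9 UMI had medians of 3150 UMIs in yap1 and 3193 in WT, against 1792 and 1723 without.

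Further genes that handle these chemokines or carry their signal were within 1.5-fold in most classes, with exceptions. Dpp4, which clips CXCL9 and CXCL10 at their start, had 551 CPM in yap1 and 561 CPM in WT LSEC-like cells, a ratio of 0.983 (0.877 to 1.10). Pf4, a chemokine best known from platelets, had 485 CPM in yap1 and 360 CPM in WT MDM-like cells, a ratio of 1.35 (1.27 to 1.43). In nonclassical monocytes Pf4 had 14.5 CPM in yap1 and 50.7 CPM in WT, a ratio of 0.285 (0.172 to 0.458). The shares of these cells with a Pf4 UMI were alike, 6.51% in yap1 (11 cells) and 6.28% in WT (12 cells). Type 2 dendritic cells had 1 UMI of Pf4 in yap1 and 27 in WT, those in WT from 3 cells. Dpp4 in nonclassical monocytes had 28 UMIs in yap1 and 13 in WT, with 1 inside the interval of its ratio of 1.87. The scavenging receptors Ackr2 and Ackr3 had 38.0 CPM and 55.3 CPM in yap1, against 53.0 CPM and 50.0 CPM in WT LSEC-like cells. Of 6 genes of chemokine receptor signalling, none was past 1.5-fold in T cell-like cells, where 11.9% of all genes were. Gnai2, the G protein subunit that carries the signal of both receptors, had 474 CPM in yap1 and 569 CPM in WT T cell-like cells, a ratio of 0.833 (0.777 to 0.892). In classical monocytes Rgs1, which ends G protein signals, had a ratio of 2.17 (1.97 to 2.40), and in neutrophil-like cells 2.61 (1.56 to 4.56). Rgs2, of the same family, had 0.652 (0.490 to 0.860) in LSEC-like cells, and the kinase subunit Pik3cg 1.62 (1.08 to 2.44) in neutrophil-like cells. Of all genes, 13.6% in classical monocytes, 27.9% in neutrophil-like cells and 16.4% in LSEC-like cells were past 1.5-fold. Cxcl11, the other CXCR3 ligand, is not analysed here.

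Over 22 points, 11 classes in each of the 2 libraries, the genes whose levels were most like each member's were listed, as a description. Points of 1 library share depth, and several patterns rest on 1 class. For Cxcl9 they were Sepp1 (r = 0.946 on log2 of CPM plus 10), Snx24 and Scamp5, and for Cxcl10 Pde7b (r = 0.839), Pgm1 and App. For Cxcl16 they were Cttnbp2nl (r = 0.960), Parvb and Tmem106a. For Cxcr3 they were Cd8b1 (r = 0.982), Cd8a and Myb, although Cxcr3 was not higher in T cell-like cells with a Cd8 UMI. For Cxcr6 they were Wdr95, Sytl2 and Fasl (r = 0.999 for Fasl), a pattern of 1 high class. Among the members, Cxcl9 with Cxcl10 gave r = 0.615 and Cxcr3 with Cxcr6 gave r = 0.671.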

How the data were processed

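Per the file headers and values, the deposited files give whole-number UMI counts per gene and barcode, which the authors did not normalize. The submitters' processing notes name mm10, Bowtie 0.12.2 and Seurat without saying what each did. Annotation, use of strand and chemistry are not given in the sources used here. Members and lists were chosen with earlier results of these data known.

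Barcodes needed 500 UMIs, 200 genes and a mitochondrial share of no more than 20% to be kept: 4149 of 4731 in yap1 and 4847 of 5269 in WT. Scrublet's automatic threshold marked 1.01% in yap1 and 0.206% in WT, the second under 0.5% and so taken as not working, so the top 4% by doublet score were left out of each library instead (166 and 194). Each cell was scored on 20 marker lists, 1 of them a CD8 subset of T cells, as the mean log of capped normalized counts, and went to the class with the highest score where it had at least 2 markers and 1.25 times the next score. Of the kept cells 308 yap1 and 366 WT cells (7.73% and 7.87%) got no class. Of 8 T cell markers 5 were in the files.

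Class sums of UMIs in each library became CPM, to which exact Poisson 95% intervals were added. Ratios, yap1 over WT, carry exact conditional binomial intervals and shares exact Clopper-Pearson intervals, all covering counting error only. A count of 0 was read as allowing 3 counts. Ratios need 50 cells in each library and 20 UMIs, and a difference is called at 1.5-fold, since 1 library per genotype allows no test. Ratios with at least 100 UMIs were recomputed under the alternatives. In each pathway list, up to 3 genes per class with at least 50 UMIs and the largest log2 ratios were marked. Not all of the marked genes are named in the text. The 3 genes most like each member are named. Other genes are named after their values were seen, and 2 listed genes are not reported here. The calculations were tested on simulated counts. Gene positions are from GENCODE M21 and promoters from RefSeq. Python 3.11.15, numpy 2.4.6, scipy 1.17.1 and scanpy 1.11.5 were used.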

Additional observations from a re-analysis of the deposited data

Results flagged for a closer look

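Cxcl10 differed between the libraries in opposite directions in different classes. Its ratio, yap1 over WT, was 2.46 in MDM-like cells, 2.39 in classical monocytes, 9.87 in type 2 dendritic cells, 3.86 in B cell-like cells and 1.88 in T cell-like cells, with intervals above 1. It was 0.502 in Kupffer-like cells, 0.398 in neutrophil-like cells and 0.497 in LSEC-like cells, with intervals below 1. Each class has 1 library per genotype, and the difference between classes was not tested. Without the top cell of each library the ratio was 1.30 in MDM-like cells, 1.58 in classical monocytes, 2.56 in T cell-like cells, 0.510 in Kupffer-like cells, 0.388 in LSEC-like cells and 1.18 in neutrophil-like cells, on the other side of 1. In type 2 dendritic cells 1 yap1 cell held 49 of the 58 yap1 UMIs. With every cell weighted equally the ratio of Kupffer-like cells was 1.92, in the other direction.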

How the results depend on the processing

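Of 19 ratios recomputed under 9 alternatives, 3 stayed inside their counting interval under all: Cxcl10 in T cell-like cells (up to 2.56) and Cxcl16 in Kupffer-like cells (down to 0.609, past 1.5-fold) and LSEC-like cells (on both sides of 1). None moved with doublets kept, without the filter, with median-of-ratios scaling or with a stricter gate. The cause of each change below was not tested. A stricter filter gave 0.889 for Cxcl9 in LSEC-like cells. Leiden clusters gave 2.52 for Cxcl9 and 1.40 for Cxcl10 in MDM, and 1.02 for Cxcl9, 3.86 for Cxcl10 and 0.662 for Cxcl16 in classical monocytes. Equal weights per cell gave 0.592 for Cxcl9 and 1.92 for Cxcl10 in Kupffer-like cells, both reversed, and 1.80, 1.74, 0.675 and 0.682 for Cxcl10 in MDM, classical monocytes, neutrophils and LSEC-like cells. Thinning reversed Cxcl9 in Kupffer-like cells (0.785) and MDM (0.822). It gave 0.288, 1.91, 1.47, 0.570 and 0.611 for Cxcl10 in Kupffer, MDM, classical monocytes, neutrophils and LSEC-like cells. It gave 0.646 and 1.24 for Cxcr3 in plasmacytoid dendritic and T cells, 0.593, 1.51, 3.08 and 0.411 for Cxcl16 in MDM, classical and nonclassical monocytes and type 2 dendritic cells, and 0.989 for Cxcr6 in T cells. Without the top cell of each library (added after seeing the data) Cxcl9 gave 1.18, 1.23 and 3.39 in Kupffer, MDM and classical monocytes. Cxcl10 then gave 1.30, 1.58 and 0.388 in MDM, classical monocytes and LSEC-like cells, and reversed to 1.18 in neutrophils. Requiring 100 UMIs, listed genes past 1.5-fold went to 4 of 30 from 8 of 42 in Kupffer and 2 of 41 from 4 of 50 in MDM. They went to 10 of 41 from 17 of 51 in classical monocytes. In T cells they went to 2 of 43 from 11 of 54, and in LSEC-like cells to 2 of 36 from 5 of 47. Of all genes with at least 20 UMIs, 19.4%, 12.5%, 13.6%, 11.9% and 16.4% were past 1.5-fold in these classes, in this order. In cells with no Cxcl10 UMI, interferon-stimulated genes past 1.5-fold higher went to 0 from 6 in Kupffer-like cells. No paired analysis was possible because each genotype has 1 library. Few UMIs of a member remain per class after thinning.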

Other observations

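Single cells outside the main sources held much ligand RNA. In the yap1 library 1 cell gated as plasma cell-like held 314 Cxcl9 UMIs and 186 Cxcl10 UMIs of 23705, which was 19.7% of all Cxcl9 UMIs of that library. It had 8 UMIs of plasma cell markers, 7 UMIs of MDM markers and none of B cell markers, so its class rests on few markers. The next plasma cell-like yap1 cells had 996 and 296 plasma marker UMIs and no UMI of either ligand.

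Among neutrophil-like cells the 3 yap1 cells with most Cxcl10 had 15616, 43616 and 5201 CPM of the 15 interferon-stimulated genes summed, against 1107 CPM for the class. The top WT cell, with 81 Cxcl10 UMIs, had 75799 CPM of them, against 1235 CPM for the class, while the next 2 WT cells had 0.

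Cells that got no class had 76.2 CPM of Cxcl9 in yap1 and 59.3 CPM in WT, and 217 CPM of Cxcl16 in yap1 and 215 CPM in WT.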
